A study of Bos taurus with 8 samples.

Results

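The genes described here are those of the bovine major histocompatibility complex (MHC) class II antigen presentation system, measured in lung tissue of newborn Holstein calves. They were chosen by name: every array probe whose accession maps to 1 of 10 symbols was taken, whatever its signal. Of these symbols 5 were found on the array, BOLA-DRA, BOLA-DQA5, BOLA-DQB, BOLA-DMB and CD74, of 11054 genes named there, with 16 probes among 43653. The symbols BOLA-DRB3, BOLA-DQA1, BOLA-DQA2, BOLA-DMA and CIITA matched no probe and are not described.

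The study compared 4 cloned calves labelled with respiratory failure and 4 healthy, naturally conceived calves, each on its own 1-colour Agilent array, to ask which lung transcripts differ between them. All samples are labelled 4 days of age, while the series text places the deaths of the clones within that time and the slaughter of the normal calves at that age. The donor cells of the clones and the class II haplotypes of the animals were not given in the labels. The clones were hybridised on 1 slide and the normal calves on another, so slide and group cannot be told apart in any comparison below. The share of spots well above background ran from 78.8% to 80.6% in clones and from 80.4% to 83.5% in normal calves, and no spot was saturated. The 75th percentile of log2 signal was lower on every clone array, 10.10 to 10.49 against 10.58 to 10.89. Over all probes the clones varied more than the normal calves, with a median SD of 0.53 against 0.17 on the log2 scale.

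Class II molecules are pairs of an alpha and a beta chain that carry peptides from endosomes to the surface of antigen-presenting cells and show them to CD4 T cells. In cattle the DR and DQ pairs present peptides, the invariant chain CD74 guides new pairs into the endosome, and the DM pair exchanges the invariant chain remnant for peptide. In lung these genes are known from macrophages, dendritic cells and B cells, and also from alveolar type II cells. The DR alpha chain varies little between animals, whereas the DQ genes are highly polymorphic and their number differs between cattle haplotypes. In the table of bovine genes used for naming, BOLA-DQA5 lies between BOLA-DQB and BOLA-DQB1, and BOLA-DMB lies beside BOLA-DMA.

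Levels are given as log2 signal relative to the 75th percentile of the same array, so a level of 0 equals that percentile and levels of different probes are not compared. Of the 16 probes, 12 were well above background in all 8 animals and 15 entered the test. None of the 15 passed the test of clones against normal calves (limma, adjusted p between 0.141 and 0.961). Of all 35636 tested probes 0.177% passed, 0.0477% higher and 0.129% lower in clones. At an unadjusted p under 0.05 there were 6, against 13.2% of all tested probes. Of these 3 were higher in the clones, a direction reached by 6.06% of all tested probes, and 3 were lower, against 7.1%. The 6 were 3 probes of BOLA-DMB, 2 of BOLA-DQB and 1 of BOLA-DQA5, and probes of 1 gene are not independent. Both BOLA-DQB probes passed the filter with only 3 clones and 1 normal calf above background. The BOLA-DQA5 probe passed it with 4 clones and 2 normal calves, so the clones alone sufficed. All 4 clones lay above all 4 normal calves on 1 of the 15 and below them on 0. Of the 35590 tested probes with a value in every animal, the shares were 4.75% above and 5.37% below. The main features were a signal from BOLA-DQA5 and from part of the BOLA-DQB probes that was strong in 3 clones and near or at background elsewhere, and BOLA-DMB differences of about the same size on all of its probes.

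**Figure D1:**
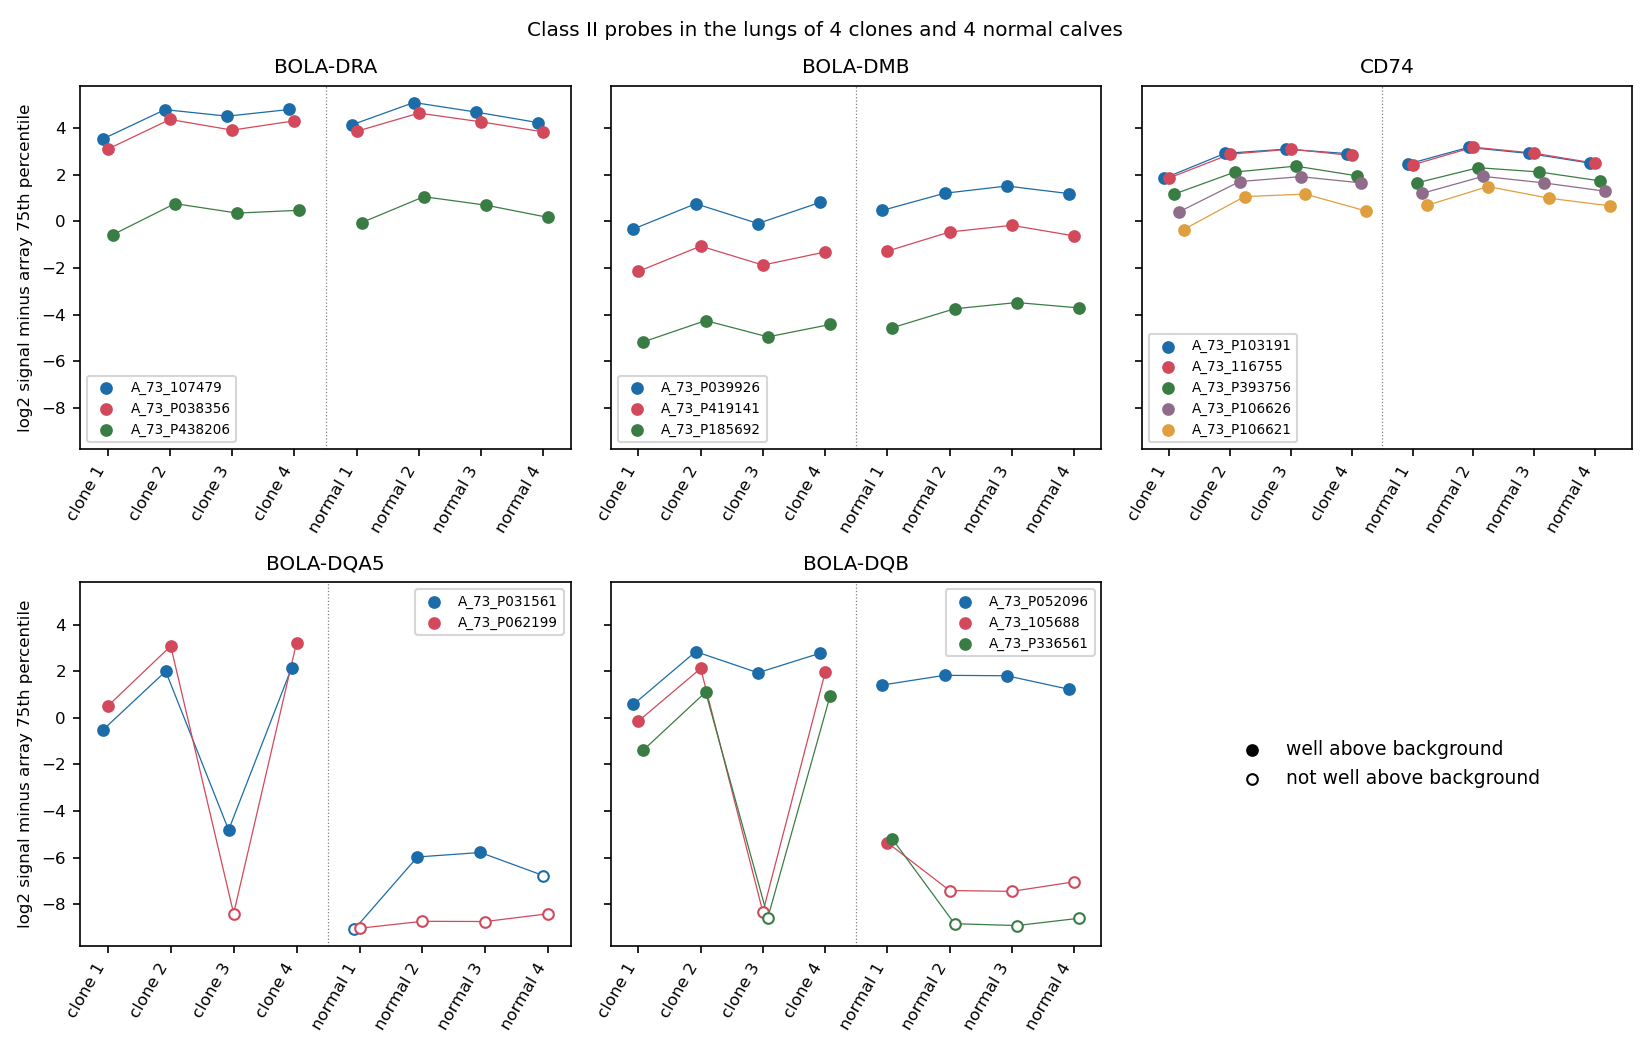
Log2 signal minus the array's 75th percentile (vertical axis) of each class II probe in each of the 8 animals (horizontal axis), 1 panel a gene and 1 colour a probe. Filled points were well above background and open points were not; lines join the readings of a probe within a group and imply no order. The probes of BOLA-DRA, BOLA-DMB and CD74 run nearly in parallel within each gene, except CD74 A_73_P106621 in clone 4. There it is -0.52 from the mean of the normal calves, and the other CD74 probes are at 0.0024 to 0.15. Both BOLA-DQA5 probes and 2 of the 3 BOLA-DQB probes are high in clones 1, 2 and 4 and low in clone 3 and in the normal calves.

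BOLA-DQA5 encodes a DQ alpha chain and was represented by 2 probes. On probe A_73_P062199 clones 1 to 4 had a processed signal, in arbitrary linear units, of 2043, 11170, 3.23 and 10710. Normal calves 1 to 4 had 3.63, 3.60, 4.30 and 5.43. Clones 1, 2 and 4 were therefore the only animals well above background, and their log2 levels were 0.51, 3.08 and 3.23. The levels in the other 5 animals, between -9.03 and -8.40, are background readings and have no order. The means of the readings were -0.40 in clones and -8.73 in normal calves, both with background readings among them, so no fold is given. This probe missed the filter of 4 arrays above background, so it has no place in the test; without any filter its adjusted p was 0.220.

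The second BOLA-DQA5 probe, A_73_P031561, measured -0.53, 2.00, -4.82 and 2.14 in clones 1 to 4. It measured -9.07, -5.97, -5.78 and -6.77 in normal calves 1 to 4. All 4 clones lay above all 4 normal calves, where 10.1% of all probes separated the groups in either direction, but clone 3 stood closer to the normal calves than to the other clones. Every clone was well above background, as were normal calves 2 and 3, whose signals of 24.4 and 33.6 were weak beside the 999, 5270 and 5043 of clones 1, 2 and 4. The mean was -0.30 ± 3.25 in clones and -6.90 ± 1.51 in normal calves (SD, n = 4 each). The log2 difference was 6.60 (SE 1.505, 95% interval 3.17 to 10.03) and did not pass the test (adjusted p = 0.141). The clones alone met the filter of 4 arrays above background, and the normal calves alone would not have met it. Its size is limited by background in normal calves 1 and 4, so no fold is given. Without clone 3 the difference was 8.11 and passed (adjusted p = 0.0261), which follows from the readings just given and is no independent support. With normexp background correction, whose offset compresses dim signals, it was 2.85.

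BOLA-DQB encodes a DQ beta chain, and its 3 probes fell into 2 patterns. Probe A_73_105688 measured -0.14, 2.12, -8.34 and 1.95 in clones 1 to 4. In normal calves 1 to 4 it measured -5.36, -7.41, -7.45 and -7.04. Clones 1, 2 and 4 were high, clone 3 was at background, and of the normal calves the first alone was well above background, far below those 3 clones. Probe A_73_P336561 repeated this split, with -1.38, 1.11, -8.57 and 0.95 in the clones, beside -5.20, -8.84, -8.92 and -8.61 in the normal calves. Again normal calf 1 joined clones 1, 2 and 4 above background, and the other 4 animals were not well above it. The log2 differences were 5.71 (SE 2.11, 95% interval 0.91 to 10.52, adjusted p = 0.296) and 5.92 (SE 2.05, 95% interval 1.25 to 10.58, adjusted p = 0.266). The groups overlapped on each probe. Both probes reached the test only through clones 1, 2 and 4, where they were high, together with the weak signal of normal calf 1. Without clone 3 the differences were 8.13 and 8.12 and passed (adjusted p = 0.0127 and 0.0298), which restates the split of the readings and adds no support. With normexp they were 2.92 and 2.32.

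The third BOLA-DQB probe, A_73_P052096, was matched to the same accession and was well above background in every animal. It measured 0.58, 2.85, 1.94 and 2.78 in clones 1 to 4, against 1.41, 1.83, 1.81 and 1.23 in normal calves 1 to 4. Clones 2 and 4 were above all normal calves, clone 1 was below all of them, and clone 3, at background on the other BOLA-DQB probes, lay above all of them on this one. The log2 difference was 0.47 (SE 0.48, 95% interval -0.63 to 1.56, adjusted p = 0.736).

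On the 12 class II probes above background in every animal, the highest and lowest animals lay 1.21 to 2.27 apart on the log2 scale, beside a median of 1.33 for all tested probes. On the other 4 the readings lay 10.02 to 12.26 apart, but the lowest of them were at background, so these spans are not measured differences. The set of animals with signal on A_73_P062199 was shared by 14 of all 43653 probes, this one included. The DQ genes form a family with near-identical copies, so the gene to which each DQ signal belongs is uncertain. Whether the animals differ in sequence or copy number under these probes was not tested.

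BOLA-DQB1, a neighbouring DQ beta gene outside the chosen symbols, had 2 probes above background in all 8 animals. Its brighter probe measured 2.32, 3.72, 3.24 and 3.73 in clones 1 to 4, against 2.46, 3.67, 3.34 and 3.03 in normal calves 1 to 4. No animal lacked this signal, and the log2 difference was 0.13 (SE 0.38, 95% interval -0.73 to 0.99, adjusted p = 0.921). The other probe gave -0.28 (adjusted p = 0.787).

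BOLA-DRA encodes the alpha chain of the DR pair and was read by 3 probes, all above background in all 8 animals. The brightest, A_73_107479, measured 3.54, 4.80, 4.52 and 4.80 in clones 1 to 4. In normal calves 1 to 4 it measured 4.14, 5.10, 4.69 and 4.24. Clone 1 was the lowest animal and normal calf 2 the highest, and the other 3 clones lay within the range of the normal calves. The means were 4.41 ± 0.60 in clones and 4.54 ± 0.44 in normal calves (SD, n = 4 each), a log2 difference of -0.13 (SE 0.34, 95% interval -0.91 to 0.65, adjusted p = 0.910). The other 2 probes gave -0.23 and -0.21, with intervals of -0.97 to 0.51 and -1.01 to 0.59. Without clone 1 all 3 differences were positive, between 0.046 and 0.16, and without normal calf 2 that of A_73_107479 was 0.057, so the data set no sign for BOLA-DRA. Over the 3 probes the intervals reach from -1.01 to 0.65.

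CD74, the invariant chain, was read by 5 probes, all above background in all 8 animals. Its brightest probe, A_73_P103191, measured 1.85, 2.92, 3.101 and 2.91 in clones 1 to 4. The normal calves 1 to 4 measured 2.46, 3.18, 2.91 and 2.50. Clone 1 again stood below every other animal and the other clones lay within the range of the normal calves. The log2 difference was -0.066 (SE 0.31, 95% interval -0.78 to 0.64, adjusted p = 0.954). The 5 differences ran from -0.38 to -0.053, and none passed the test. With clone 1 left out, 4 of the 5 became positive, between 0.18 and 0.24. The same 4 became positive without normal calf 2, between 0.036 and 0.072, and A_73_P393756 did so without normal calf 3 (0.0027), so the data set no sign for CD74 either.

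**Figure D2:**
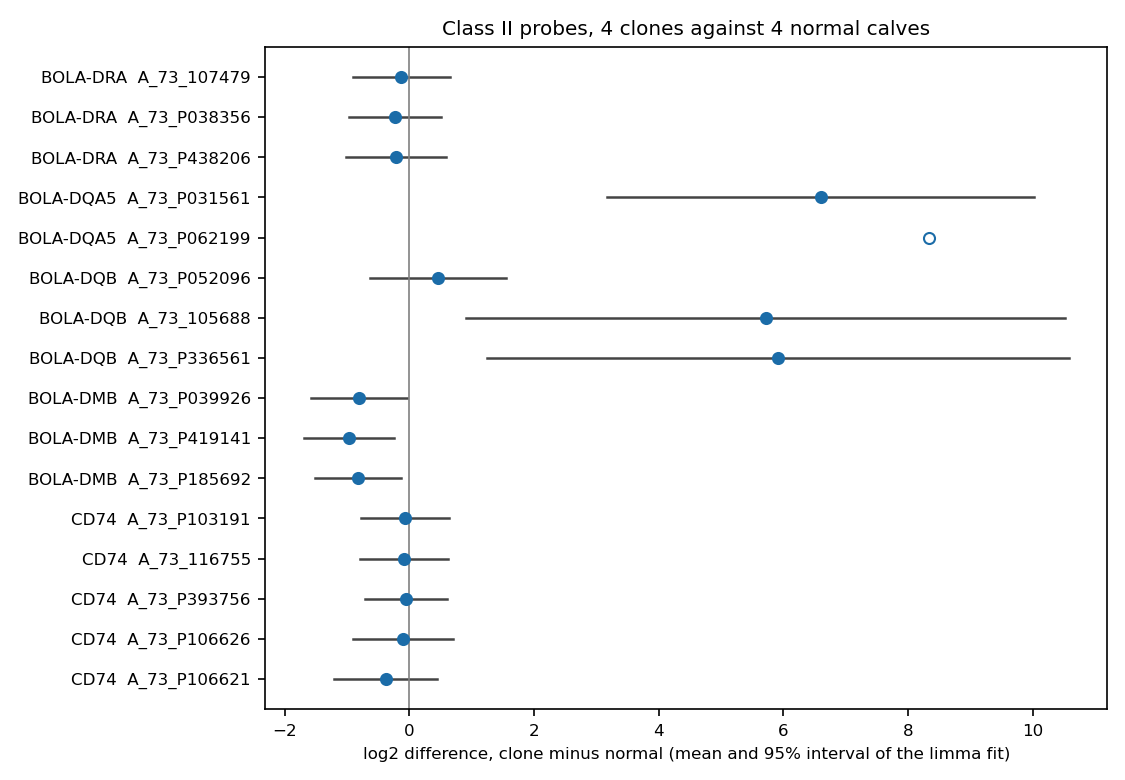
Log2 difference, clone minus normal (horizontal axis), of each of the 16 class II probes (vertical axis), with points for the estimate and bars for the 95% interval of the limma fit. The open point is the BOLA-DQA5 probe left out of the test, shown as the difference of the measured means, 8.34. The intervals of BOLA-DRA and CD74 span 0, those of BOLA-DMB lie below 0, and those of BOLA-DQA5 A_73_P031561 and of 2 BOLA-DQB probes lie above 0 and are several times as wide; none passed the adjustment over all probes.

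BOLA-DMB encodes the beta chain of the DM pair, which edits the peptides that class II molecules carry. Its brightest probe, A_73_P039926, measured -0.33, 0.76, -0.09 and 0.82 in clones 1 to 4. In normal calves 1 to 4 it measured 0.47, 1.21, 1.52 and 1.19. Clones 1 and 3 lay below every normal calf, and clones 2 and 4 lay between normal calf 1 and the other 3. The log2 difference was -0.81 (SE 0.34, 95% interval -1.58 to -0.039, adjusted p = 0.355).

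On the 2 other BOLA-DMB probes clones 1 and 3 were again the lowest animals and clone 2 the highest clone. On A_73_P419141 the means were -1.60 ± 0.50 in clones and -0.63 ± 0.47 in normal calves (SD, n = 4 each), a 1.96-fold lower level in clones that missed the test (log2 difference -0.97, 95% interval -1.70 to -0.24, adjusted p = 0.251). On A_73_P185692 the log2 difference was -0.82 (95% interval -1.51 to -0.14, adjusted p = 0.294). The groups overlapped on all 3 probes. The difference kept its sign on all 3 in all 16 alternative settings, between -1.18 and -0.60, and its adjusted p was 0.164 or more throughout. An unadjusted p under 0.05 with a lower level in clones was reached by 7.1% of all tested probes, and probes of 1 gene are not independent.

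Within each array, BOLA-DMB was also lower relative to BOLA-DRA and to CD74. The mean of its 3 probes minus that of the 3 BOLA-DRA probes was -4.57, -4.83, -5.24 and -4.84 in clones 1 to 4, against -4.44, -4.61, -3.93 and -3.80 in normal calves 1 to 4. Clone 1 lay just above normal calf 2, and the other 3 clones lay below all normal calves. This within-array contrast fell from -4.20 ± 0.39 to -4.87 ± 0.28 (SD, n = 4 each). Against CD74 it fell from -3.13 ± 0.37 to -3.86 ± 0.52. By the same measure CD74 and BOLA-DRA kept nearly the same distance, -1.01 ± 0.29 in clones and -1.06 ± 0.098 in normal calves. BOLA-DQB probe A_73_P052096 minus the BOLA-DRA probes was -1.44, -0.47, -0.99 and -0.42 in clones 1 to 4, against -1.24, -1.78, -1.41 and -1.52 in normal calves 1 to 4, so clones 2, 3 and 4 lay above all normal calves and clone 1 within their range. These contrasts were formed after the levels had been seen and were not tested.

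Across the 12 probes above background in every animal, clone 1 was the lowest of the 8 animals on all 12. Clone 1 was the lowest animal on 28.5% of all tested probes. The 12 were 5 probes of CD74, 3 of BOLA-DRA, 3 of BOLA-DMB and 1 of BOLA-DQB, and probes of 1 gene are not independent. Normal calf 2 was the highest on 7 of the 12, normal calf 3 on 3, and clones 2 and 3 on 1 each. Relative to the mean of the normal calves, the BOLA-DRA probes averaged -1.03, 0.26, -0.13 and 0.14 in clones 1 to 4, and the CD74 probes -1.01, 0.15, 0.34 and -0.033. The BOLA-DMB probes averaged -1.41, -0.38, -1.17 and -0.50. Clone 3 thus stood near the normal calves for BOLA-DRA and CD74 but below them for BOLA-DMB.

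**Figure D3:**
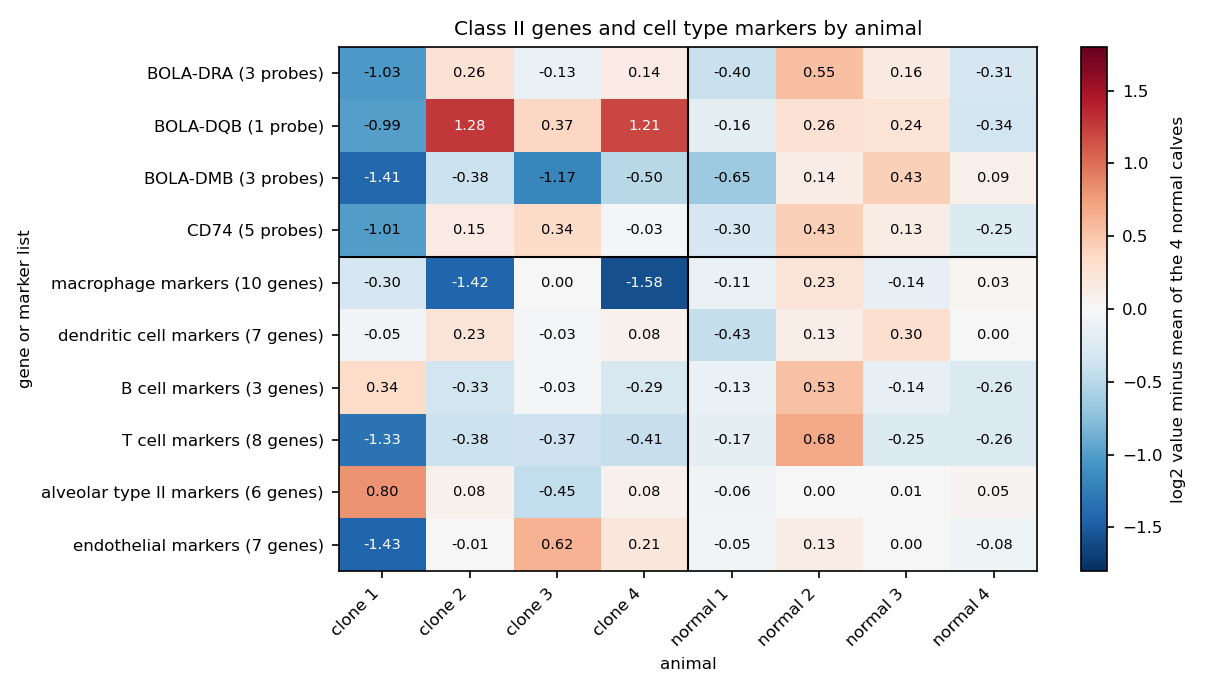
Log2 value minus the mean of the 4 normal calves (colour and printed value) for class II genes and cell type marker lists (rows) in each of the 8 animals (columns). Genes are means over their probes above background in all 8 animals and lists are means over 1 probe a gene. Clone 1 is low for BOLA-DRA, CD74 and T cell and endothelial markers, and the macrophage list mean is -0.30, -1.42, -0.0023 and -1.58 in clones 1 to 4, an average over genes that differ in which clone is lowest.

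Marker genes of the cells that carry class II molecules were read on the same arrays. In whole lung, fewer cells of a type and less RNA per cell cannot be told apart. Of 10 measured macrophage markers 9 were lower in clones, with a median difference of -1.03, and 0 passed the test (limma); 5 had an unadjusted p under 0.05, against 13% of all 9867 genes. AIF1, a cytoskeletal protein of macrophages, had a log2 difference of -1.21 (SE 0.36, adjusted p = 0.217) and C1QB, a chain of complement C1q, -1.51 (SE 0.50, adjusted p = 0.252). The log2 of the summed level of all 10 markers ran from 6.12 to 7.86 in clones and from 7.56 to 8.13 in normal calves. The mean over the list was lowest in clones 2 and 4, but its genes did not order the animals alike. C1QB measured 3.84, 4.72, 6.405 and 4.34 in clones 1 to 4 and was lowest in clone 1, as was C1QA. CD14, the lipopolysaccharide co-receptor, stood at 2.55 in clone 1 and -1.235 in clone 4 relative to the mean of the normal calves. The part of these markers in the class II values was not tested.

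The dendritic cell list had 7 measured genes with a median difference of 0.049, and the summed level ran from 1.76 to 2.68 in clones and from 1.48 to 2.25 in normal calves. The defining genes XCR1 and ZBTB46 did not pass the filter. CCR7, the homing receptor of mature dendritic cells, differed by 0.53 (adjusted p = 0.441). The 3 measured B cell genes had a median of -0.081 and a summed level of -0.16 to 1.16 in clones and 0.30 to 0.80 in normal calves, with CD79A, a chain of the B cell receptor complex, at -0.22 (adjusted p = 0.658). The 6 alveolar type II genes had a median of 0.041 and a summed level of 8.17 to 8.98 in clones and 8.43 to 8.59 in normal calves. The highest alveolar type II mean, 0.80 above the normal calves, was that of clone 1. In none of these 3 lists did a gene pass the test or reach an unadjusted p under 0.05.

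The T cell and endothelial list means were lowest in clone 1, as were BOLA-DRA, CD74 and BOLA-DMB. Clone 1 was also the lowest animal on 28.5% of all tested probes. The mean of 8 T cell genes was -1.33, -0.38, -0.37 and -0.41 in clones 1 to 4 relative to the normal calves, and that of 7 endothelial genes -1.43, -0.013, 0.62 and 0.21. In clone 1 most of the T cell value came from CD8A at -4.40 and CD8B at -2.40, the latter not well above background there. The rest of the list was below the normal mean too, with CD2 at -1.16, CD3G at -1.08, CD3E at -0.90 and CD3D at -0.42. Nearest to that mean were LCK, a T cell kinase, at -0.15 and CD4 at -0.11. The summed T cell level ran from 3.70 to 4.40 in clones and from 3.97 to 4.35 in normal calves, and the summed endothelial level from 5.39 to 7.94 and from 6.73 to 6.84. No gene of either list passed the test, and 2 of 8 T cell genes and 0 of 7 endothelial genes had an unadjusted p under 0.05, beside 13% of all genes. CD8A, the co-receptor of cytotoxic T cells, which read class I molecules, had a log2 difference of -2.45 (SE 0.62, adjusted p = 0.176), while CD4, the co-receptor for class II, had one of 0.043 (adjusted p = 0.947). Their part in the class II values was not tested.

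Of other class II genes, BOLA-DYB, a beta chain restricted to ruminants, was well above background in all 4 normal calves and in clone 1 alone of the clones. It measured -5.23, -6.82, -6.75 and -7.10 in clones 1 to 4, against -5.01, -3.52, -6.04 and -5.47 in normal calves 1 to 4. Clone 1 lay within the normal range and the other 3 clones were at background. The log2 difference of -1.46 (SE 0.59, 95% interval -2.81 to -0.12, adjusted p = 0.338) is limited by background and did not pass. BOLA-DOB, a chain of the DO pair that restrains DM, was dim, with 3 clones and 2 normal calves above background on its brighter probe and a log2 difference of 0.92 (adjusted p = 0.383). The BOLA-DYA probe was not well above background in any animal.

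Genes that drive or accompany class II expression gave no call among those described here. Of the transcription complex that binds class II promoters, 4 of 7 listed genes were measured, 2 lower and 2 higher in clones, with a median difference of -0.058. NFYB, a subunit of the CCAAT-binding factor, had a log2 difference of -0.33 (SE 0.16, adjusted p = 0.431) on its brighter probe and -0.14 on the other. On the brighter probe all clones lay below all normal calves, as on 5.37% of all probes. IFNGR1, a receptor chain for interferon gamma, the main inducer of class II genes, differed by 0.24 on its brightest probe and by -0.34 on both others, and IFNG itself did not pass the filter on low signal.

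Among 10 genes of endosomal processing, 6 were lower and 4 higher in clones, with a median of -0.062. Cathepsin S (CTSS), the protease that trims the invariant chain, measured 3.60, 3.36, 3.41 and 3.28 in clones 1 to 4, against 3.28, 3.77, 3.77 and 3.47 in normal calves 1 to 4. The groups overlapped and the log2 difference was -0.16 (adjusted p = 0.770). The aspartic protease CTSD had the smallest p of this list, with a log2 difference of 0.42 (SE 0.19, adjusted p = 0.389) on its brightest probe. On that probe all clones lay above all normal calves, as on 4.75% of all probes. Its other probes gave 0.47 and 0.16. MARCHF1, the ligase that removes class II molecules from the surface, differed by -0.49 (adjusted p = 0.556). The co-stimulatory genes CD86, CD40 and CD83 differed by -0.45, 0.27 and 0.19, and none passed.

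Class I presentation, the parallel route to CD8 T cells, gave no call either. Of 14 measured genes 10 were lower and 4 higher in clones, with a median of -0.14 beside -0.016 for all 9867 genes. The class I heavy chain gene BOLA differed by 0.19 (SE 0.18, adjusted p = 0.701) on its brightest probe, and by 0.19 and 0.027 on its others. JSP.1, also on this list, differed by -0.28 (adjusted p = 0.869), and the clones ranged from 4.66 to 7.27. The class I light chain B2M differed by 0.13 (adjusted p = 0.853). PSMB10, an immunoproteasome subunit, had a log2 difference of -0.49 (SE 0.20, adjusted p = 0.347), the only gene of this list with an unadjusted p under 0.05.

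**Figure D4:**
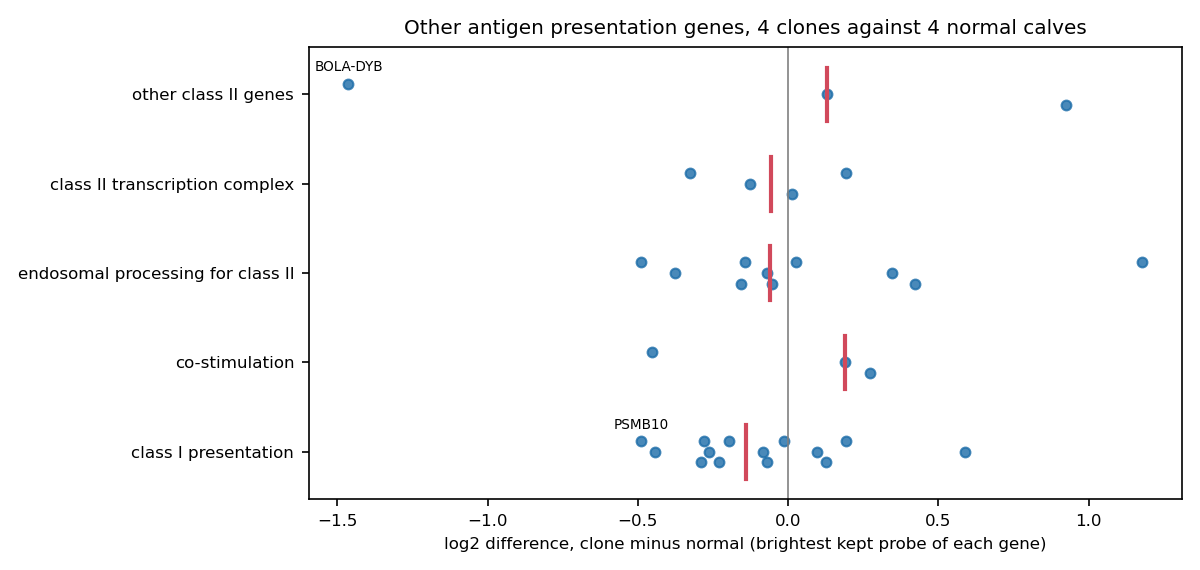
Log2 difference, clone minus normal (horizontal axis), of each measured gene in 5 lists of antigen presentation genes (vertical axis), 1 point a gene, with the list's median as a red bar. Genes with an unadjusted p under 0.05 are named. BOLA-DYB at -1.46 and PSMB10 at -0.49 carry names, and no gene passed the adjusted threshold.

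The genes whose levels over the 8 animals lay closest to those of the brightest BOLA-DRA probe were sought among 9854 others, by the root mean square difference of mean-centred log2 values. The nearest were LEF1 (0.152), CD74 (0.154), ABAT (0.167), PRKCB (0.176) and ELAC1 (0.184), followed by BOLA-DQB1 (0.189). LEF1 is a transcription factor of lymphocyte development and WNT signalling, and PRKCB a protein kinase C of lymphocytes and myeloid cells. BOLA-DQB and BOLA-DMB, each by its brightest probe, ranked 1506 and 1948 at 0.440 and 0.466. For BOLA-DQB this was A_73_P052096, so its other probes, which differed in pattern, were not ranked. BOLA-DQA5 is left out here, because this distance grows with the span of the readings.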

How the data were processed

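Each array was deposited as an Agilent Feature Extraction file (version 10.7, per the submitters' processing notes), with a linear, background-subtracted processed intensity for each Cy3 spot, not normalized between arrays. A second, deposited table by the authors gives log2 values. Against log2 signal of the matching array each column had r of 0.99948 or more, and each had a median of 7.89. The scale is therefore log2 and the direction unchanged. The authors' normalization is not stated in the labels, but their table and quantile normalization of the signals gave the same counts, 19 probes higher and 41 lower, and all columns share their median. The table served as an alternative.

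Control and outlier spots were removed, each array's 75th percentile was subtracted from its log2 processed signals, and spots of a probe were averaged. Probes well above background on at least 4 of 8 arrays were kept, 35636 of 43653. Accessions without versions were matched to RefSeq genes of ARS-UCD2.0, which named 23492 probes. The array design names another build, Btau_3.1, so no coordinates are given. Probe sequences were not used here. Groups were compared by limma 3.58.1 in R 4.3.3 (lmFit, eBayes, 2-sided), with Benjamini-Hochberg adjustment over all kept probes and a threshold of 0.05. In lists a gene was represented by its brightest kept probe. The code was tested on simulated data. The normexp alternative used an offset of 50 and the median spot signal, in place of the mean signal planned.

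The members and gene lists were chosen with earlier results of these data known. Named were all member probes, the other class II genes, up to 4 genes of smallest p in each list and the 5 genes nearest to BOLA-DRA. CTSS, MARCHF1, CD4, B2M and the class I gene BOLA were named for their role after their values had been seen. CD14, LCK, CD3D, CD3G and JSP.1 were also named after their values had been seen, to show how genes of a list differed. The test of 1 gene of the interferon gamma list is not reported here. Alternatives were other normalizations, filters, the authors' table, eBayes settings, a replicate block and leaving out each animal.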

Additional observations from a re-analysis of the deposited data

Results flagged for a closer look

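In 84 groups of 4 animals, 1 for each named probe and group, 5 held an animal far from the other 3 by Dixon's test; chance marks about 1 in 20 groups. BOLA-DQB probe A_73_P336561 stood at -5.20 in normal calf 1, above background, while the next normal calf was at -8.61, at background. CD74 probe A_73_P103191 was 1.85 in clone 1, with the next clone at 2.91. BOLA-DQB1 probe A_73_P362616 was 0.91 in clone 1, with the next clone at 1.89. BOLA-DOB probe A_73_P251706 was -6.53 in clone 3, with the next clone at -5.02. CD79A was -0.34 in normal calf 3, with the next normal calf at -0.22.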

How the results depend on the processing

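The count of changed probes over the whole array was 63, and it was 0 with normexp background correction (limma, 2278 at an unadjusted p under 0.05), 17 with a filter on all 8 arrays, 146 with trend and robust eBayes and 13 with the replicate number as a block. With 1 animal left out it ran from 17 to 2562, the latter without clone 1. Of the class II probes 0 were changed in each setting except without clone 3, where 3 passed, so the range was 0 to 3. There were 15 tested, except 16 with no filter and 12 with the filter on all 8 arrays, which leaves out the DQ probes that were not above background in every animal. The replicate numbers did not pair the animals. Deviations of same-numbered animals correlated at -0.20 to 0.099, 2 of 4 clones correlated best with their own number, and the block left 0 class II probes changed. Of 238 recomputed class II differences 17 turned sign, all on BOLA-DRA or CD74 probes. With normexp, which moved the median of all probes to -0.32, BOLA-DRA A_73_107479 stood at 0.0026 and CD74 A_73_P103191, A_73_116755 and A_73_P393756 at 0.066, 0.062 and 0.032. With 1 animal left out the BOLA-DRA probes A_73_107479, A_73_P038356 and A_73_P438206 ranged from -0.26 to 0.16, -0.38 to 0.046 and -0.39 to 0.064. The CD74 probes A_73_P103191, A_73_116755, A_73_P393756 and A_73_P106626 ranged from -0.20 to 0.21, -0.23 to 0.18, -0.21 to 0.19 and -0.27 to 0.24. The causes of these turns were not tested beyond the animals left out. Groups of 4 and signals at background limit the size and precision of the DQ differences.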
